A study of Mus musculus with 8 samples.

Results

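The 38 genes described here are enriched in astrocytes, the star-shaped glial cells of the brain, and were picked by gene symbol from the table of read counts, where all 38 were found among 29442 genes. They comprise identity genes and transcription factors, transporters and enzymes of glutamate handling, junction proteins, channels and carriers for water and ions, receptors, metabolic enzymes and secreted proteins. Ventral hippocampal RNA was sequenced from 8 female C57BL/6 J mice, with 1 library listed per mouse. The study used mice aged 6 to 8 weeks and does not state their age at dissection, after the injections. The series' design note speaks of 6 tissues although 8 samples are listed, and HipR9 and HipR11, 1 of each group, were registered later than the other 6. For 21 days, 4 of them received abdominal subcutaneous injections of DHEA (30 mg/kg/day), an adrenal androgen precursor, and the other 4 received the vehicle, sesame oil. All of them had been through behavioural tests before the tissue was taken, and the labels name the tissue only as hippocampus. The comparison asks which hippocampal genes differ after chronic DHEA. The signs in the study's list of differentially expressed genes run opposite to those given by the deposited treatment labels, so every direction here follows the deposited labels, and a positive log2 fold change means higher in DHEA. Were the labels exchanged, every sign given here would turn.

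Astrocytes take up the glutamate that neurons release, mainly through the transporters encoded by Slc1a2 and Slc1a3, and convert it to glutamine with the enzyme encoded by Glul. They are coupled to each other by gap junctions of the connexins encoded by Gja1 and Gjb6, and their endfeet around blood vessels carry the water channel encoded by Aqp4. Gfap, the gene of their main intermediate filament, is known to rise when astrocytes become reactive. In the hippocampus, radial glia-like stem cells of the dentate gyrus share several of these genes, among them Gfap, Sox9, Id4 and Fabp7.

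Between 31483772 and 38038361 reads were counted on genes per library, and every DHEA library held more than every sesame oil library. Each member had a mean of at least 406.5 counts. Values below are CPM, counts scaled to library size with TMM normalization, and are listed in the order HipR3, HipR4, HipR7 and HipR11 for DHEA and HipR5, HipR10, HipR16 and HipR9 for sesame oil. On the first principal component of the 16813 genes averaging 10 counts or more, which held 33.4% of the variance, HipR4 (35.6) and HipR3 (21.8) stood apart from the other 6 libraries (-12.7 to -3.62). The number of members past the test is therefore also given without these 2 DHEA libraries.

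Of the 38 astrocyte-enriched genes, 16 were slightly higher in the DHEA libraries at an unadjusted p under 0.05, 22 did not pass this test, and none passed after adjustment in edgeR. The fold change was positive for 35 of the 38 members and negative for 3, and the median log2 fold change was 0.14, beside 0.012 over the 12780 genes averaging 100 counts or more and 0.0079 over all 27612 genes tested. The positive sign of Gli3, Slc6a11, Slc7a10, Cbs, Ntsr2, Phkg1 and Agt turned when single libraries were left out, as did the negative sign of Fabp7 and Slc25a18. In edgeR's quasi-likelihood test, 16 of the 38 (42.1%) were higher with an unadjusted p under 0.05, where 4.82% of all genes tested and 8.08% of those averaging 100 counts or more were (either direction 9.31% of all genes). None was lower (0 of 38, beside 4.48% of all genes and 7.6% of the more highly counted ones). The 16 differences were small, between 10.4% and 29.1%. After Benjamini-Hochberg adjustment over all genes, 0 of 38 members had an adjusted p under 0.05 in edgeR (background 0%), and the smallest was 0.230. DESeq2 gave 1 member, Id4, an adjusted p under 0.05 (adjusted p = 0.0323), where 0.642% of the 12623 genes with an adjusted p were called higher, 0.57% lower and 1.21% in all. The count of 16 fell to 9 without the sesame oil library HipR5. It was 13 without HipR3 and HipR4, where the median log2 fold change was 0.14. The share of all genes tested with an unadjusted p under 0.05, in either direction, fell too. This share was 9.31% with all 8 libraries, 6.53% without HipR5 and 7.89% without HipR3 and HipR4. Members are measured in the same 8 libraries and are not independent of each other. In bulk tissue, more astrocytes, more RNA per astrocyte and a shift in other cell types cannot be told apart. Markers of other cell types, given below, had median log2 fold changes of 0.39 (myelin), 0.24 (endothelium), 0.22 (microglia) and 0.15 (oligodendrocyte precursors). The median was -0.0055 for neurons and -0.022 for radial glia-like stem cells. The part of these cell types in the differences of the members was not tested.

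**Figure D1:**
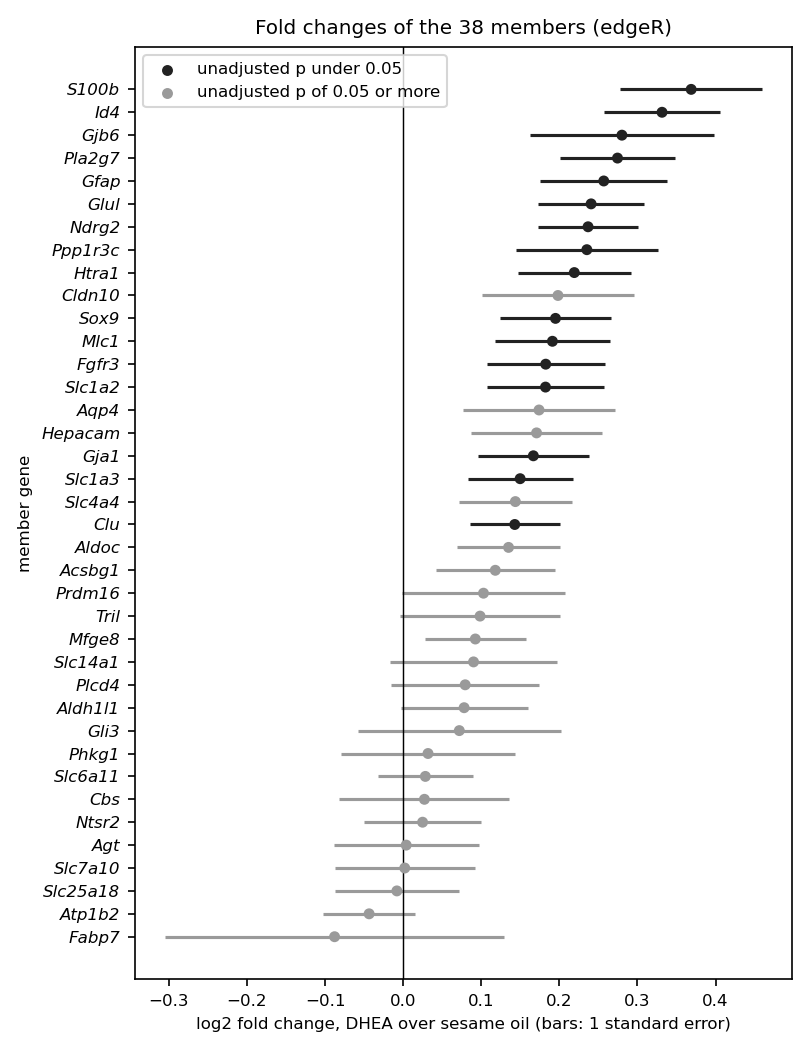
Log2 fold changes (DHEA over sesame oil, horizontal axis) of the 38 astrocyte-enriched genes from edgeR, with bars of 1 standard error. The 16 black points have an unadjusted p under 0.05, and all lie between 0.14 and 0.37; 3 of the 22 grey points lie below 0.

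The libraries differed in how high the members were as a set. Their summed level was 11820, 13568, 12352 and 12449.7 CPM in the DHEA libraries and 10489, 10841, 11397 and 11759 CPM in the sesame oil libraries. The lowest DHEA library, HipR3, lay just above the highest sesame oil library, HipR9, and Slc1a2 alone made up 33.3% of the sum. HipR4 held the highest value of 18 members and HipR5 the lowest of 20. In log2 units relative to the mean of the 8 libraries, the median member was at 0.15 in HipR4, 0.091 in HipR7, 0.031 in HipR11 and 0.0020 in HipR3. The corresponding values were 0.030 in HipR9, -0.038 in HipR16, -0.094 in HipR10 and -0.18 in HipR5. The sesame oil library HipR9 thus lay among the DHEA libraries on this measure, at about the level of HipR11. The median coefficient of variation of the members was 9.24% in DHEA and 8.32% in sesame oil, and it was larger in DHEA for 25 of the 38. Over all genes averaging 100 counts or more the medians were 9.33% and 6.30%, so a larger spread in DHEA was not particular to the members. The groups did not overlap in 8 members (21.1%), all higher in DHEA, beside 2.42% of all genes tested and 4.23% of those averaging 100 counts or more. Lower groups without overlap were seen in 0 members, beside 2.62% of all genes. Groups of 4 without overlap fix the two-sided exact permutation p of the mean CPM at 0.0286, the smallest possible, so it adds nothing for these 8. In the other 8 of the 16 the exact permutation p ran from 0.0571 (Pla2g7) to 0.171 (Gjb6).

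**Figure D2:**
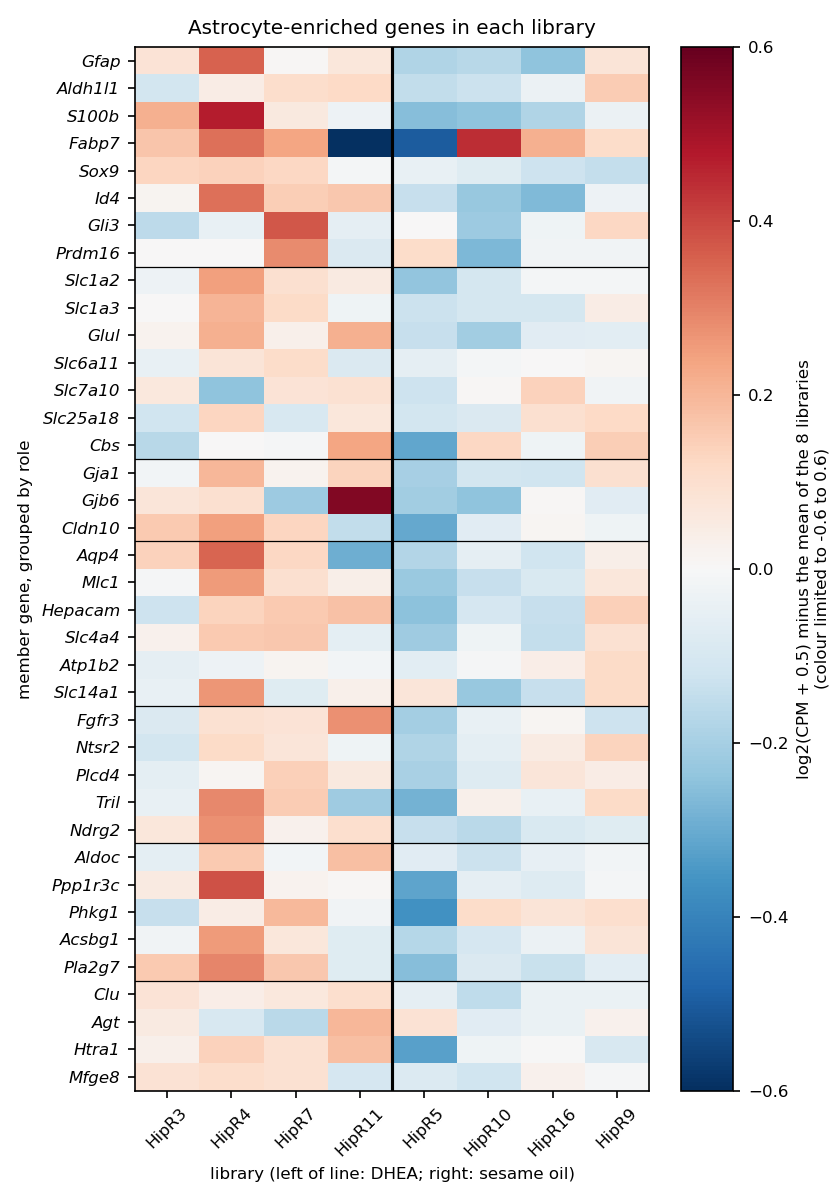
Level of each of the 38 members (rows, grouped by role) in each of the 8 libraries (columns), as log2(CPM + 0.5) minus the mean of the 8 libraries, with DHEA to the left of the line. HipR4 is the reddest column, with the highest value of 18 members, and HipR5 the bluest, with the lowest of 20.

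Per length of transcript, the members spanned a wide range of levels. Glul was the highest at 701 ± 52.7 FPKM (SD, n = 4) in the DHEA libraries and 605 ± 28.8 FPKM (SD, n = 4) in the sesame oil libraries. It was followed by Clu with a mean of 359.7 FPKM over the 8 libraries, Slc1a2 with 291, Aldoc with 238, Ndrg2 with 202, Atp1b2 with 120.4 and Slc1a3 with 102 FPKM. Gja1 had 79.8 FPKM, S100b 50.9, Gfap 41.7 and Aqp4 30.6 FPKM. The 8 members under 10 FPKM included the transcription factor genes Sox9 (8.67), Prdm16 (2.15) and Gli3, the lowest at 1.39 ± 0.272 FPKM (SD, n = 4) in the DHEA libraries and 1.35 ± 0.142 FPKM (SD, n = 4) in the sesame oil libraries. Every member was counted in every library, with at least 352 counts (Gli3 in HipR10). Levels here are FPKM as deposited, and the fold changes are from the counts.

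Among the identity genes and transcription factors, 4 of 8 (50%) were higher with an unadjusted p under 0.05. The share was 8.08% among all genes averaging 100 counts or more. The largest member differences were those of S100b and Id4. The 250 bases before the transcription start are shown for these 2 genes, which had the smallest p of all members, and for Slc1a3, described below, whose window held the most kinds of motif searched. They are from RefSeq on GRCm38.p6, matched by symbol, whereas the counts were made on another build. Capitals mark matches to TGACG (part of the cAMP response element bound by CREB), TTGGCA (part of the nuclear factor I site), TTCNNNGAA (bound by STAT factors) or AGAACA (an arm of the element bound by the androgen and glucocorticoid receptors), on either strand.
Id4 (chr13:48260866-48261115, plus strand): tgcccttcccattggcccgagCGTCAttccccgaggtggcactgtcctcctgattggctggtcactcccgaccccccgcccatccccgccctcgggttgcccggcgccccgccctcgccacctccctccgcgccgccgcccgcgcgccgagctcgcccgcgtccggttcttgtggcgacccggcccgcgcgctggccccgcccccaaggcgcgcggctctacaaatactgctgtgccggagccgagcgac
S100b (chr10:76253586-76253835, plus strand): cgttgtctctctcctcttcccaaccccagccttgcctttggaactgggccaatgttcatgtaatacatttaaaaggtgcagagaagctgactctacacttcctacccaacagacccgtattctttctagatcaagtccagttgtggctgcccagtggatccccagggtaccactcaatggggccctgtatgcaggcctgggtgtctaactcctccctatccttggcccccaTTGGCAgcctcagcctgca
Slc1a3 (chr15:8710808-8711057, minus strand): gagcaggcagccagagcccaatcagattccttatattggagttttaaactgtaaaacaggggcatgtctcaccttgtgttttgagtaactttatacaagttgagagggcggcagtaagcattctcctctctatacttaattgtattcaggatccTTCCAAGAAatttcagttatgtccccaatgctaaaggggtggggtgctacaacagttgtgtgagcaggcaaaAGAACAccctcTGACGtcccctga

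Id4 held TGACG on the opposite strand 229 bases before the start, S100b held TTGGCA 19 bases before it, and Slc1a3 held TTCNNNGAA, AGAACA and TGACG 96, 24 and 13 bases before it. In GENCODE vM21 the Id4 window is intronic to 2 noncoding genes of the opposite strand (A330033J07Rik and Gm49291), and the other 2 windows overlap no annotated gene. RefSeq windows of 250 bases before to 50 after the start were found for 33 of the 38 members (Aqp4, Atp1b2, Clu, Slc14a1 and Sox9 had none). TTCNNNGAA was in 7 of 33 members (21.2%) and 9.07% of the 20677 tested genes with a window, and the 7 were Acsbg1, Agt, Aldoc, Gfap, Ntsr2, Pla2g7 and Slc1a3. AGAACA was in 4 of 33 members (12.1%) and 19.2% of the 20677 tested genes with a window. TTGGCA was in 4 of 33 members (12.1%) and 15.8% of the 20677 tested genes with a window, TGACG in 5 of 33 members (15.2%) and 26.7% of the 20677 tested genes with a window, and AACAAT, the core bound by SOX factors, in 1 of 33 members (3.03%) and 9.97% of the 20677 tested genes with a window. The palindromic androgen and glucocorticoid response element was in 0 of 33 members and 0.00967% of the 20677 tested genes with a window. TTCNNNGAA and AGAACA share the letters GAA and can overlap, which they do not in the Slc1a3 window, and TTCNNNGAA is its own reverse complement and was counted once. A match describes these letters only.

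Id4, an inhibitor of basic helix-loop-helix transcription factors that is active in astrocytes and neural stem cells, was counted at 90.3, 113, 98.9 and 100.2 CPM in the DHEA libraries and at 81.3, 76.4, 74.3 and 87.5 CPM in the sesame oil libraries. All DHEA libraries lay above all sesame oil libraries, with HipR4 the highest and HipR16 the lowest. Id4 had a log2 fold change of 0.33 (standard error 0.074, unadjusted p = 0.000313, edgeR adjusted p = 0.230). S100b, which encodes a calcium-binding protein secreted by astrocytes, was counted at 96.9, 116, 87.1 and 81.9 CPM in the DHEA libraries and at 69.9, 70.5, 73.7 and 81.6 CPM in the sesame oil libraries. The groups did not overlap, though HipR11 and HipR9 were 81.9 and 81.6 CPM, and HipR4 was the highest. S100b had a log2 fold change of 0.37 (standard error 0.091, unadjusted p = 0.000745, edgeR adjusted p = 0.240). For S100b, leaving out both HipR3 and HipR4 gave 0.19 (unadjusted p = 0.0169) on the log2 scale. Without HipR9 and HipR11, the 2 samples registered later than the rest, S100b had a log2 fold change of 0.49 and an edgeR adjusted p of 0.0456.

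Gfap, the intermediate filament gene, was counted at 326, 393, 309 and 322 CPM in the DHEA libraries and at 271, 274, 260.2 and 325 CPM in the sesame oil libraries. HipR9 was as high as the DHEA libraries other than HipR4, so the groups overlapped. Gfap had a log2 fold change of 0.26 (standard error 0.081, unadjusted p = 0.00546, edgeR adjusted p = 0.315). For Gfap, leaving out HipR4 gave 0.17 (unadjusted p = 0.0273) and leaving out both HipR3 and HipR4 gave 0.15 (unadjusted p = 0.0561) on the log2 scale. Sox9, a transcription factor of the astrocyte lineage, was counted at 39.3, 39.6, 39.2 and 35.5 CPM in the DHEA libraries and at 34.7, 34.1, 32.9 and 32.5 CPM in the sesame oil libraries. Here the groups did not overlap, and HipR11 was lower than the other DHEA libraries. Sox9 had a log2 fold change of 0.20 (standard error 0.072, unadjusted p = 0.0139, edgeR adjusted p = 0.403). For Sox9, leaving out both HipR3 and HipR4 gave 0.15 (unadjusted p = 0.0617) on the log2 scale. Aldh1l1, a folate enzyme whose gene is widely used as a general astrocyte marker, was counted at 39.8, 44.4, 46.3 and 46.8 CPM in the DHEA libraries and at 38.8, 39.4, 42.0 and 47.9 CPM in the sesame oil libraries. The groups overlapped, the highest value was in the sesame oil library HipR9, and the log2 fold change was 0.078 (95% interval -0.093 to 0.25), with an unadjusted p of 0.351. Of the other 3 genes of this group, Prdm16, a chromatin regulator, had a log2 fold change of 0.10 (95% interval -0.12 to 0.32) and Gli3, a hedgehog pathway factor, at 0.072 (95% interval -0.20 to 0.35). Fabp7, the brain fatty acid-binding protein of immature glia and stem cells, was the most variable member, with 13.9 to 35.7 CPM in the DHEA libraries and 19.9 to 38.6 CPM in the sesame oil libraries, and its lowest 2 values were in HipR11 and HipR5. Its log2 fold change was -0.088 (95% interval -0.54 to 0.37), and the sign rested on single libraries, with 0.14 without HipR11 and 0.048 without HipR10.

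In the group of glutamate, GABA and amino acid handling, the 3 genes of glutamate uptake and glutamine synthesis were higher with an unadjusted p under 0.05. They made up 42.9% of the group, beside 8.08% higher among all genes averaging 100 counts or more. The other 4 had fold changes close to 0. Glul, glutamine synthetase, was counted at 1853, 2113, 1866 and 2113 CPM in the DHEA libraries and at 1659, 1582, 1740.2 and 1744 CPM in the sesame oil libraries. No overlap was seen, with HipR4 and HipR11 the highest. Glul had a log2 fold change of 0.24 (standard error 0.068, unadjusted p = 0.00229, edgeR adjusted p = 0.275). Slc1a2, the main glutamate transporter of astrocytes (GLT-1) and the member with the most counts, was counted at 3837, 4641, 4183 and 4075 CPM in the DHEA libraries and at 3324, 3641, 3891 and 3894 CPM in the sesame oil libraries. HipR3 lay below the sesame oil libraries HipR16 and HipR9, so the groups overlapped. Slc1a2 had a log2 fold change of 0.18 (standard error 0.075, unadjusted p = 0.0257, edgeR adjusted p = 0.465). For Slc1a2, leaving out HipR4 gave 0.12 (unadjusted p = 0.0695), HipR5 gave 0.14 (unadjusted p = 0.121) and leaving out HipR10 gave 0.18 (unadjusted p = 0.0593) on the log2 scale. Slc1a3, the glutamate transporter GLAST, was counted at 678, 781, 734 and 664 CPM in the DHEA libraries and at 618, 629, 629.9 and 698 CPM in the sesame oil libraries. HipR9 was above HipR3 and HipR11. Slc1a3 had a log2 fold change of 0.15 (standard error 0.067, unadjusted p = 0.0386, edgeR adjusted p = 0.511). For Slc1a3, leaving out HipR4, HipR7, HipR5, HipR10, HipR16 or both HipR3 and HipR4 gave log2 fold changes of 0.10 to 0.14 and unadjusted p-values of 0.0743 to 0.135. After removal of a trend with GC content, the log2 fold change was 0.15 for Slc1a2 (unadjusted p = 0.0607), 0.12 for Slc1a3 (unadjusted p = 0.0936) and 0.23 for Glul (unadjusted p = 0.00264).

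The log2 fold change was 0.028 (95% interval -0.10 to 0.16) for Slc6a11, the GABA transporter GAT-3, which differed little between libraries (144 to 165 CPM in DHEA, 147 to 155 CPM in sesame oil). For Slc7a10, a transporter of small neutral amino acids including serine, it was 0.0020 (95% interval -0.19 to 0.19), and HipR4, the library with the highest values of so many members, held its lowest value (26.5 CPM). Slc25a18, a mitochondrial glutamate carrier, had a log2 fold change of -0.0081 (95% interval -0.17 to 0.16), and Cbs, cystathionine beta-synthase, at 0.027 (95% interval -0.20 to 0.26). No difference between the groups was detected for these 4 genes, the sign of each changed with single libraries left out, and the intervals leave room for log2 differences of up to 0.26 in size.

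**Figure D3:**
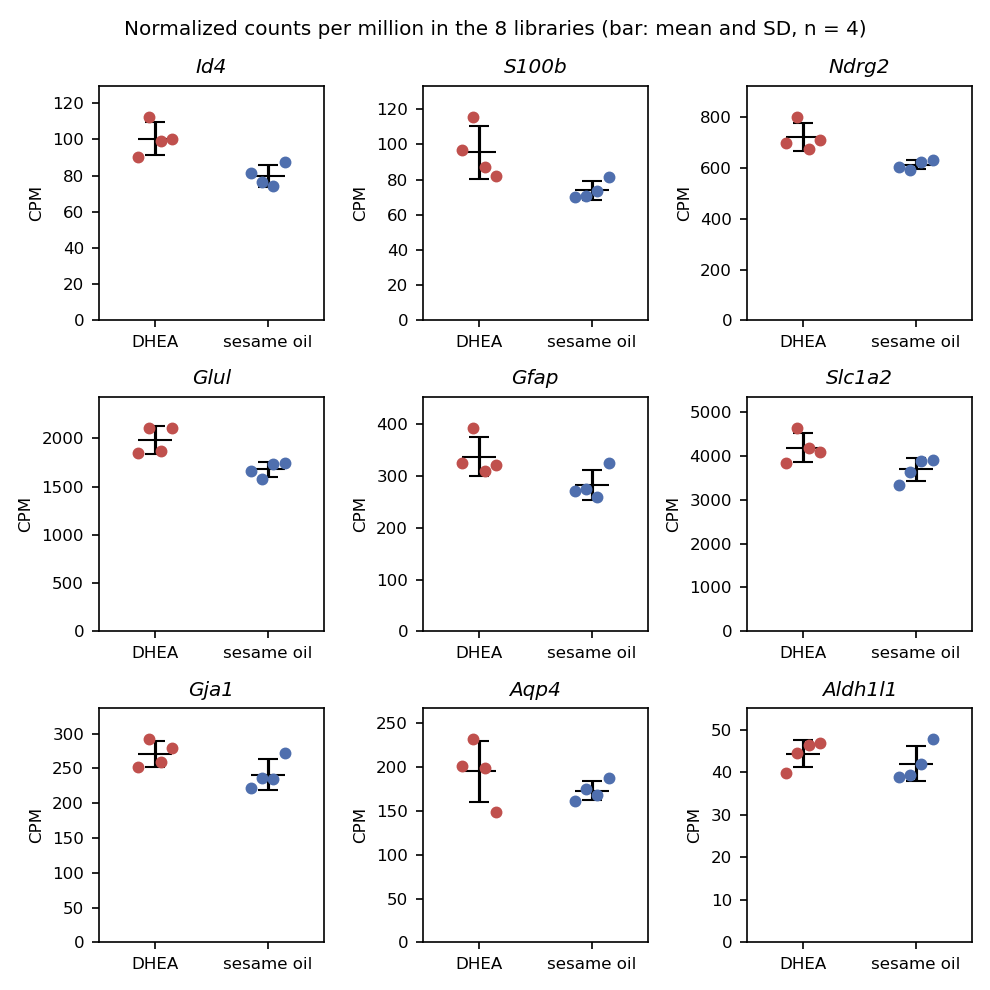
CPM of 9 members in the 4 DHEA (red) and 4 sesame oil (blue) libraries, each on an axis that starts at 0, with the mean and SD in black. The groups do not overlap for Id4, S100b, Ndrg2 and Glul; those of Gfap, Slc1a2, Gja1, Aqp4 and Aldh1l1 overlap.

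The junction genes were all higher in mean, and all 3 overlapped between the groups. An unadjusted p under 0.05 was seen in 2 of 3 (66.7%), beside 8.08% higher among all genes averaging 100 counts or more. Gja1, which encodes connexin 43, was counted at 252, 293, 259 and 279 CPM in the DHEA libraries and at 222, 236, 234 and 273 CPM in the sesame oil libraries. HipR9 was above HipR3 and HipR7, while HipR5 was the lowest. Gja1 had a log2 fold change of 0.17 (standard error 0.071, unadjusted p = 0.0301, edgeR adjusted p = 0.487). For Gja1, leaving out HipR4, HipR11, HipR5, HipR10, HipR16 or both HipR3 and HipR4 gave log2 fold changes of 0.12 to 0.16 and unadjusted p-values of 0.0512 to 0.116. Gjb6, which encodes connexin 30, was counted at 58.0, 59.0, 47.4 and 81.2 CPM in the DHEA libraries and at 47.7, 46.5, 55.5 and 52.6 CPM in the sesame oil libraries. HipR11 was far above the other libraries and HipR7 lay among the sesame oil libraries. Gjb6 had a log2 fold change of 0.28 (standard error 0.12, unadjusted p = 0.0282, edgeR adjusted p = 0.480). For Gjb6, leaving out HipR11 gave 0.12 (unadjusted p = 0.205), HipR5 gave 0.25 (unadjusted p = 0.0694) and leaving out HipR10 gave 0.24 (unadjusted p = 0.0779) on the log2 scale. Cldn10, a tight junction claudin, had a log2 fold change of 0.20 (95% interval -0.0058 to 0.40).

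Of the 6 genes of water, ion and membrane transport, 1 (16.7%) was higher with an unadjusted p under 0.05. Among all genes averaging 100 counts or more this share was 8.08%. Mlc1, a membrane protein of astrocyte endfeet that is mutated in megalencephalic leukoencephalopathy, was counted at 143, 171, 153 and 147 CPM in the DHEA libraries and at 123, 130.3, 135 and 151 CPM in the sesame oil libraries. HipR9 was above HipR3 and HipR11, so the groups overlapped. Mlc1 had a log2 fold change of 0.19 (standard error 0.073, unadjusted p = 0.0178, edgeR adjusted p = 0.420). For Mlc1, leaving out HipR4 gave 0.13 (unadjusted p = 0.0832) and leaving out HipR5 gave 0.15 (unadjusted p = 0.0766) on the log2 scale. Aqp4, the water channel aquaporin-4, was counted at 201, 233, 199 and 149 CPM in the DHEA libraries and at 162, 176, 168 and 187 CPM in the sesame oil libraries. The lowest value of all was in the DHEA library HipR11 and the highest in the DHEA library HipR4. Aqp4 had a log2 fold change of 0.17 (standard error 0.10, unadjusted p = 0.0897, edgeR adjusted p = 0.589). For Aqp4, leaving out HipR4 gave 0.071 (unadjusted p = 0.413), HipR11 gave 0.28 (unadjusted p = 0.000864) and leaving out both HipR3 and HipR4 gave -0.00086 (unadjusted p = 0.993) on the log2 scale. Without HipR9 and HipR11 the unadjusted p of Aqp4 was 0.000561 and its log2 fold change 0.32. Hepacam, the adhesion partner of the Mlc1 protein, had a log2 fold change of 0.17 (95% interval -0.0056 to 0.35), and Slc4a4, a sodium bicarbonate cotransporter, at 0.14 (95% interval -0.0089 to 0.30). Slc14a1, a urea transporter, had a log2 fold change of 0.090 (95% interval -0.13 to 0.31). Atp1b2, the beta-2 subunit of the sodium pump, was 1 of the 3 members with a negative log2 fold change, at -0.044 (95% interval -0.17 to 0.080), and had the narrowest spread of this group in the DHEA libraries (coefficient of variation 2.04%).

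Of the 5 genes of receptors and signalling, 2 (40%) were higher with an unadjusted p under 0.05. This was so for 8.08% of all genes averaging 100 counts or more. Ndrg2, a cytoplasmic protein of mature astrocytes, was counted at 695, 801, 674 and 709.5 CPM in the DHEA libraries and at 601, 591, 622 and 630.2 CPM in the sesame oil libraries. All DHEA libraries were higher, and the sesame oil libraries lay close together. Ndrg2 had a log2 fold change of 0.24 (standard error 0.064, unadjusted p = 0.00174, edgeR adjusted p = 0.271). Fgfr3, a receptor for fibroblast growth factors, was counted at 86.7, 98.0, 97.3 and 111 CPM in the DHEA libraries and at 79.9, 89.3, 92.8 and 84.5 CPM in the sesame oil libraries. HipR3 lay below HipR10 and HipR16, and HipR11 was the highest. Fgfr3 had a log2 fold change of 0.18 (standard error 0.076, unadjusted p = 0.0268, edgeR adjusted p = 0.471). For Fgfr3, leaving out HipR11 gave 0.12 (unadjusted p = 0.121), HipR5 gave 0.15 (unadjusted p = 0.0971) and leaving out HipR9 gave 0.17 (unadjusted p = 0.0638) on the log2 scale. Its unadjusted p was 0.214 without HipR9 and HipR11. The log2 fold change was 0.10 (95% interval -0.12 to 0.31) for Tril, an accessory protein of Toll-like receptors, 0.079 (95% interval -0.12 to 0.28) for Plcd4, a phospholipase C, and 0.025 (95% interval -0.13 to 0.18) for Ntsr2, a neurotensin receptor.

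The metabolic genes gave 2 of 5 (40%) with an unadjusted p under 0.05, both higher, beside 8.08% higher among all genes averaging 100 counts or more. Pla2g7, the secreted platelet-activating factor acetylhydrolase, was counted at 154, 169.5, 155 and 131 CPM in the DHEA libraries and at 116, 130.2, 126 and 132 CPM in the sesame oil libraries. HipR11 was just below HipR9 and the other 3 DHEA libraries were above all sesame oil libraries. Pla2g7 had a log2 fold change of 0.27 (standard error 0.074, unadjusted p = 0.00162, edgeR adjusted p = 0.265). For Pla2g7, leaving out both HipR3 and HipR4 gave 0.18 (unadjusted p = 0.0273) on the log2 scale. Ppp1r3c, which targets protein phosphatase 1 to glycogen and so favours glycogen synthesis, was counted at 51.9, 65.2, 50.7 and 50.2 CPM in the DHEA libraries and at 40.0, 48.2, 47.3 and 49.7 CPM in the sesame oil libraries. The groups did not overlap, but HipR4 was well above the rest and the other 3 DHEA libraries were close to HipR9. Ppp1r3c had a log2 fold change of 0.24 (standard error 0.091, unadjusted p = 0.0184, edgeR adjusted p = 0.421). For Ppp1r3c, leaving out HipR4 gave 0.13 (unadjusted p = 0.115), HipR5 gave 0.17 (unadjusted p = 0.0835) and leaving out both HipR3 and HipR4 gave 0.12 (unadjusted p = 0.175) on the log2 scale. Aldoc, the brain isoform of the glycolytic enzyme aldolase, was counted at 657, 763, 675 and 775 CPM in the DHEA libraries and at 652, 624, 660.5 and 676 CPM in the sesame oil libraries. The groups overlapped, since HipR3 and HipR7 lay among the sesame oil libraries. Aldoc had a log2 fold change of 0.13 (standard error 0.066, unadjusted p = 0.0573, edgeR adjusted p = 0.549). Acsbg1, an acyl-CoA synthetase, had a log2 fold change of 0.12 (95% interval -0.041 to 0.28), and Phkg1, a catalytic subunit of phosphorylase kinase, at 0.032 (95% interval -0.20 to 0.27).

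Among the 4 secreted proteins, 2 (50%) were higher with an unadjusted p under 0.05 and without overlap. Of all genes averaging 100 counts or more, 8.08% were higher at this p and 4.23% were higher without overlap. Clu, clusterin, an extracellular chaperone and apolipoprotein, was counted at 855, 829, 842 and 866 CPM in the DHEA libraries and at 777, 726, 784 and 785 CPM in the sesame oil libraries. Its spread was small in both groups (coefficient of variation 1.89% in DHEA and 3.69% in sesame oil). Clu had a log2 fold change of 0.14 (standard error 0.058, unadjusted p = 0.0236, edgeR adjusted p = 0.456). For Clu, leaving out HipR10 gave 0.12 (unadjusted p = 0.0952) and leaving out both HipR9 and HipR11 gave 0.14 (unadjusted p = 0.0568) on the log2 scale. Htra1, a secreted serine protease, was counted at 111, 120.2, 116 and 124 CPM in the DHEA libraries and at 86.9, 107, 109 and 102 CPM in the sesame oil libraries. HipR5 was the lowest, and HipR3 lay just above HipR16. Htra1 had a log2 fold change of 0.22 (standard error 0.072, unadjusted p = 0.00706, edgeR adjusted p = 0.340). Mfge8, which bridges phosphatidylserine to integrins on phagocytes, had a log2 fold change of 0.092 (95% interval -0.043 to 0.23), and Agt, angiotensinogen, at 0.0039 (95% interval -0.19 to 0.20). The summed level of the 4 genes was 1099 to 1128 CPM in the DHEA libraries and 965 to 1037 CPM in the sesame oil libraries, of which Clu made up 76.2%.

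The fold changes of the 22 members that did not pass the test depended on single libraries to differing degrees. When 1 library was omitted at a time, log2 fold changes ran from 0.042 (without HipR5) to 0.15 (without HipR9) for Aldh1l1, from 0.017 (without HipR7) to 0.16 (without HipR5) for Prdm16 and from -0.062 (without HipR7) to 0.14 (without HipR3) for Gli3. They ran from 0.00027 (without HipR4) to 0.15 (without HipR9) for Slc14a1, from 0.0042 (without HipR4) to 0.18 (without HipR11) for Tril, from 0.028 (without HipR5) to 0.11 (without HipR3) for Plcd4 and from 0.039 (without HipR4) to 0.16 (without HipR9) for Acsbg1. The differences of Slc14a1 and Tril were thus close to 0 without HipR4 alone. The range was 0.13 (without HipR5) to 0.27 (without HipR11) for Cldn10, 0.12 (without HipR5) to 0.25 (without HipR9) for Hepacam, 0.10 (without HipR5) to 0.20 (without HipR9) for Slc4a4, 0.065 (without HipR4) to 0.14 (without HipR11) for Mfge8 and 0.10 (without HipR11) to 0.17 (without HipR3) for Aldoc. Without both HipR9 and HipR11, the unadjusted p was 0.0101 for Cldn10, 0.0172 for Hepacam, 0.00393 for Slc4a4, 0.0332 for Tril, 0.0210 for Acsbg1 and 0.0495 for Mfge8, all higher in DHEA.

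The libraries differed in other respects that moved with the treatment label. The correlation of each library's deviations with GC content ran from -0.11 to -0.0044 in DHEA and from 0.056 to 0.14 in sesame oil, without overlap. After removal of this trend, 15 members were higher with an unadjusted p under 0.05, 13 of them among the 16. The median log2 fold change of the members was 0.13. In either direction, 8.54% of all genes tested passed after this removal, beside 9.31% before it. Beside Slc1a2 and Slc1a3, Gja1 lost its unadjusted p under 0.05, with a log2 fold change of 0.11 (unadjusted p = 0.142), and Aqp4 fell to 0.11 (unadjusted p = 0.264). Hepacam and Aldoc gained it, with log2 fold changes of 0.19 (unadjusted p = 0.0396) and 0.14 (unadjusted p = 0.0418). Mitochondrial genes held 7.29% to 9.34% of the counts in DHEA and 6.37% to 7.23% in sesame oil. Without them the number of members higher was 16, beside 9.35% of all genes tested in either direction. With every library thinned to the smallest total it was 16, beside 9.21%.

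Of the 36 further astrocyte genes listed beside the members, 26 had a positive fold change, with a median log2 fold change of 0.074, and 9 were higher and 1 lower with an unadjusted p under 0.05 (25% and 2.78%, beside 8.08% higher and 7.6% lower among all genes averaging 100 counts or more). Slc39a12, a zinc transporter, was counted at 70.9, 69.8, 65.3 and 68.5 CPM in the DHEA libraries and at 50.1, 51.8, 52.6 and 48.1 CPM in the sesame oil libraries. Every DHEA library was above every sesame oil library. Slc39a12 had a log2 fold change of 0.44 (standard error 0.064, adjusted p = 0.0569 with edgeR and 1.39e-07 with DESeq2). Fgfr2, a fibroblast growth factor receptor, was counted at 67.6, 66.0, 63.2 and 65.8 CPM in the DHEA libraries and at 57.3, 51.6, 57.7 and 56.6 CPM in the sesame oil libraries. Its groups did not overlap either, and its adjusted p with DESeq2 was 0.0485 and 0.271 with edgeR. Etnppl, a phospholyase of ethanolamine phosphate, varied most, with 12.8 to 52.0 CPM in the DHEA libraries and 9.34 to 17.8 CPM in the sesame oil libraries, and had a log2 fold change of 0.88 (standard error 0.33, unadjusted p = 0.0166). Mt3, a metallothionein, had a log2 fold change of 0.19 (standard error 0.076, unadjusted p = 0.0235). The gene with the most counts of this list, Sparcl1, which encodes a secreted matrix protein, had a log2 fold change of 0.030 (standard error 0.064, unadjusted p = 0.640). The gene that was lower was Gli2, a hedgehog pathway factor, with a log2 fold change of -0.36 (standard error 0.16, unadjusted p = 0.0357), and it was named for that reason after its values were seen.

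Genes known to rise in reactive astrocytes had a median log2 fold change of 0.19, and 5 of 34 were higher and 1 lower with an unadjusted p under 0.05. These are 14.7% and 2.94% of the list, beside 8.08% higher and 7.6% lower among all genes averaging 100 counts or more. Not all of the list was counted that highly, since 31 of the 34 averaged 10 counts or more and DESeq2 gave 14 no adjusted p. Among all genes averaging 10 counts or more, 6.85% were higher and 6.26% lower. Tm4sf1, a membrane protein that endothelial cells also express, had a log2 fold change of 0.37 (standard error 0.10, unadjusted p = 0.00210). Iigp1, an interferon-induced GTPase, had a log2 fold change of 0.70 (standard error 0.25, unadjusted p = 0.0115), and H2-D1, a class I histocompatibility gene, at 0.28 (standard error 0.11, unadjusted p = 0.0212). Lcn2, lipocalin-2, was low and uneven, with 0.888, 1.51, 0.610 and 12.2 CPM in the DHEA libraries and 0.966, 1.63, 0.635 and 1.27 CPM in the sesame oil libraries. HipR11 alone was high and the other 7 libraries overlapped. The log2 fold change was 1.75 (standard error 0.67, unadjusted p = 0.0185), and -0.17 without HipR11. Osmr, a cytokine receptor, was the fifth that was higher, with a log2 fold change of 0.36 (standard error 0.16, unadjusted p = 0.0424), and Hspb1, a small heat shock protein, the gene that was lower, with a log2 fold change of -0.52 (standard error 0.24, unadjusted p = 0.0476), both named after their values were seen. The gene with the most counts was Vim, vimentin, with 40.1 to 55.8 CPM in the DHEA libraries and 40.1 to 51.7 CPM in the sesame oil libraries and a log2 fold change of 0.11 (standard error 0.10, unadjusted p = 0.264).

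Around the metabolic members, 3 of 21 glycogen and lactate genes were higher with an unadjusted p under 0.05 and 0 were lower, with a median log2 fold change of 0.12. The share higher was 14.3%, beside 8.08% of all genes averaging 100 counts or more. Pdk4, a kinase that inhibits pyruvate dehydrogenase, was counted at 12.3, 13.6, 15.1 and 16.6 CPM in the DHEA libraries and at 9.63, 9.78, 9.96 and 11.0 CPM in the sesame oil libraries. The groups did not overlap. Pdk4 had a log2 fold change of 0.51 (standard error 0.11, adjusted p = 0.230 with edgeR and 0.0132 with DESeq2). Slc2a1, the glucose transporter of endothelium and astrocytes, had a log2 fold change of 0.23 (standard error 0.090, unadjusted p = 0.0185), and Phkb, a regulatory subunit of phosphorylase kinase, at 0.18 (standard error 0.070, unadjusted p = 0.0218). The one with the most counts, Ldhb, a lactate dehydrogenase subunit, had a log2 fold change of 0.12 (standard error 0.064, unadjusted p = 0.0722). Of the 18 other genes of the glutamate and glutamine cycle, many of them neuronal, the median log2 fold change was -0.040, 0 were higher and 1 was lower, Got1, a cytosolic aspartate aminotransferase, at -0.13 (standard error 0.061, unadjusted p = 0.0431). That is 5.56% of the list, below the 7.6% lower among all genes averaging 100 counts or more. Slc17a7, the vesicular glutamate transporter and the one with the most counts, had a log2 fold change of -0.094 (standard error 0.060, unadjusted p = 0.133).

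Markers of other cell types were examined in the same libraries, where the shares of all genes averaging 100 counts or more were again 8.08% higher and 7.6% lower. Of 12 myelin and oligodendrocyte genes, 12 were higher with an unadjusted p under 0.05, with a median log2 fold change of 0.39. Their summed level was 6953, 8771, 6884 and 7189 CPM in the DHEA libraries and 5570.3, 5535, 4687 and 6666 CPM in the sesame oil libraries. No overlap was seen in this sum, with HipR4 the highest, as it was for the summed members, and HipR16 the lowest. The smallest p was that of Mal, a myelin proteolipid, at 0.55 (standard error 0.094, unadjusted p = 1.46e-05), and the gene with the most counts, Mbp, myelin basic protein, had a log2 fold change of 0.39 (standard error 0.10, unadjusted p = 0.00107). DESeq2 gave 3 of the 12 an adjusted p under 0.05, among them Mal (0.00178) and the tight junction gene Cldn11 (0.0120). Endothelial genes had a median log2 fold change of 0.24 and 6 of 11 were higher and 0 lower with an unadjusted p under 0.05. Slco1a4, an organic anion transporter of the blood-brain barrier, had a log2 fold change of 0.38 (standard error 0.080, unadjusted p = 0.000169), while Flt1, a receptor for vascular endothelial growth factor and the gene with the most counts, had a log2 fold change of -0.056 (standard error 0.064, unadjusted p = 0.391). In DESeq2, 3 of the 11 had an adjusted p under 0.05, namely Ly6c1 (0.0198) and Ly6a (0.0424), which encode surface antigens, and Slco1a4 (0.0210). The endothelial sum was 464, 508, 406 and 454 CPM in the DHEA libraries and 391, 377, 394 and 419.9 CPM in the sesame oil libraries. HipR4 was the highest, and HipR7 lay below HipR9, so these sums overlapped. Microglial genes had a median log2 fold change of 0.22 and 5 of 12 were higher and 0 lower with an unadjusted p under 0.05. Itgam, an integrin, had a log2 fold change of 0.34 (standard error 0.10, unadjusted p = 0.00408), P2ry12, a purine receptor, at 0.37 (standard error 0.12, unadjusted p = 0.00726), and the complement genes C1qa and C1qb at 0.33 and 0.28. The microglial sum was 467, 549.8, 434 and 412 CPM in the DHEA libraries and 366, 407, 394 and 436 CPM in the sesame oil libraries. These sums overlapped as well, with HipR4 again the highest and HipR9 above HipR7 and HipR11. Oligodendrocyte precursor genes had a median log2 fold change of 0.15 and 3 of 9 were higher and 0 lower with an unadjusted p under 0.05. Pdgfra, a growth factor receptor, had a log2 fold change of 0.25 (standard error 0.069, unadjusted p = 0.00210), Lhfpl3, a tetraspan membrane protein, at 0.32 (standard error 0.10, unadjusted p = 0.00457), and the gene with the most counts, Olig1, a lineage transcription factor, at 0.20 (standard error 0.077, unadjusted p = 0.0165).

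The precursor sum was 355, 378, 357 and 337 CPM in the DHEA libraries and 305, 318, 304 and 329.6 CPM in the sesame oil libraries. Here every DHEA library was above every sesame oil library, with HipR4 the highest. Neuronal genes had a median log2 fold change of -0.0055, and 0 of 16 were higher and 4 lower with an unadjusted p under 0.05. The shares were 0% and 25%, beside 8.08% higher and 7.6% lower among all genes averaging 100 counts or more. Rbfox3, the NeuN gene, had a log2 fold change of -0.16 (standard error 0.055, unadjusted p = 0.00781), and the neurofilament genes Nefh and Nefm had log2 fold changes of -0.21 (standard error 0.078, unadjusted p = 0.0151) and -0.18 (standard error 0.069, unadjusted p = 0.0158). Grin1, a subunit of the NMDA receptor, had a log2 fold change of -0.16 (standard error 0.069, unadjusted p = 0.0296). The neuronal sum was 14455, 14523, 13837 and 13527 CPM in the DHEA libraries and 13719.6, 13918, 14457 and 13752 CPM in the sesame oil libraries, and the groups overlapped almost fully. The gene with the most counts was Camk2a, a calcium-dependent kinase, with a log2 fold change of 0.024 (standard error 0.065, unadjusted p = 0.713). Radial glia-like stem cell genes, which share markers with astrocytes, had a median log2 fold change of -0.022. At an unadjusted p under 0.05, 2 of 12 were higher (16.7%, beside the same 8.08%) and 0 lower. They were Lpar1, a lysophosphatidic acid receptor also found in oligodendrocytes, with a log2 fold change of 0.32 (standard error 0.10, unadjusted p = 0.00688), and Hopx, a homeodomain protein, at 0.21 (standard error 0.082, unadjusted p = 0.0194). Sox2, a stem cell transcription factor and the gene with the most counts here, had a log2 fold change of 0.029 (standard error 0.069, unadjusted p = 0.681).

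Genes of tissue that adjoins the hippocampus varied widely between libraries. The summed level of 12 choroid plexus genes was 7022, 364, 3595 and 6462 CPM in DHEA and 4689, 3208, 3645 and 951 CPM in sesame oil, with Ttr, transthyretin, giving 56.4% of the sum. It was lowest in HipR4, the library with the highest summed level of the 38 members. The log2 fold changes of 12 of 12 choroid plexus genes were positive, with a median log2 fold change of 0.45, and 0 had an unadjusted p under 0.05. Ependymal genes had a median log2 fold change of 0.38 and 2 of 10 (20%) were higher and 0 lower with an unadjusted p under 0.05. Thalamic genes had a median log2 fold change of 0.080 and 1 of 10 (10%) was higher and 0 lower at this p. Of all genes tested, 4.82% were higher and 4.48% lower, and of those averaging 100 counts or more 8.08% and 7.6%. The thalamic share was near the latter. The ependymal sum was 47.0, 50.7, 55.6 and 58.8 CPM in the DHEA libraries and 40.6, 49.2, 27.5 and 52.8 CPM in the sesame oil libraries, and the groups overlapped. The ependymal genes were Rarres2, which encodes chemerin, with a log2 fold change of 0.38 (standard error 0.16, unadjusted p = 0.0310), and Mia, a small secreted protein, at 0.64 (standard error 0.29, unadjusted p = 0.0389), with Foxj1, a regulator of motile cilia, the gene with the most counts, at 0.093 (standard error 0.15, unadjusted p = 0.535). The thalamic sum was 194, 256, 241 and 235 CPM in the DHEA libraries and 205, 189, 183 and 233 CPM in the sesame oil libraries. The thalamic sums overlapped, with HipR9 among the DHEA libraries. The thalamic gene was Rora, a nuclear receptor and also the gene with the most counts of its list, with a log2 fold change of 0.23 (standard error 0.10, unadjusted p = 0.0294). The part of other cell types and of adjoining tissue in the differences of the members was not tested.

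**Figure D4:**
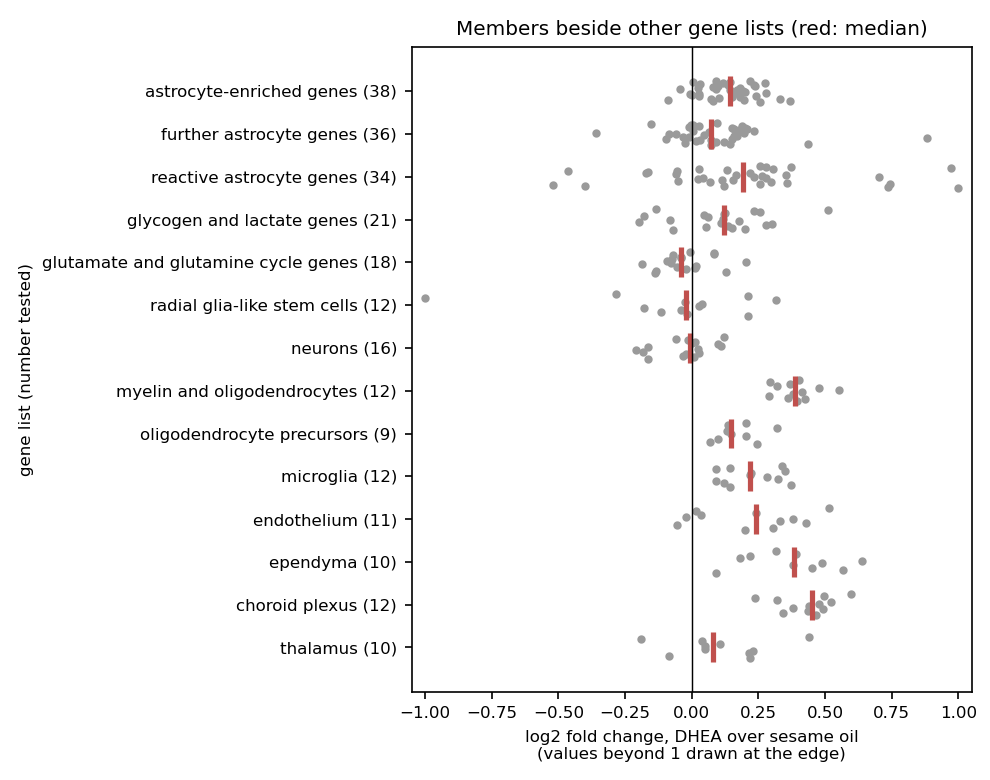
Log2 fold changes (DHEA over sesame oil, horizontal axis) of the 38 astrocyte-enriched genes and of 13 other gene lists, 1 grey point per gene with values beyond 1 drawn at the edge and a red bar at each median. The medians are 0.14 for the members, 0.39 for myelin, 0.24 for endothelium and -0.0055 for neurons.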

How the data were processed

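Total RNA of 8 ventral hippocampi was sequenced as paired-end reads. Per the study's methods, reads of low quality were discarded, alignment was done with HISAT2 and counting with HTSeq. The authors deposited raw counts and FPKM values per gene. The submitters' processing notes name fastp and GRCm39, and versions, annotation and strand setting are not given in the sources used here. The deposited FPKM were counts divided by the library total and 1 length per gene (equal within 0.1% in 25234 of 25234 genes checked), and served for levels between genes. In GENCODE vM21, 13 members share exonic bases with a gene on the opposite strand (Id4, Glul, Slc1a2, Pla2g7 and Fgfr3 among those with an unadjusted p under 0.05), whose reads cannot be told apart without strand, and 2 with another gene on the same strand (Glul and Aldh1l1).

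Counts were normalized by TMM and tested with edgeR 4.0.16 (quasi-likelihood test, R 4.3.3) on the 27612 genes with at least 1 count, with Benjamini-Hochberg adjustment over all of them. For single genes, mean CPM was also compared over all 70 allocations of the libraries (exact permutation test, two-sided). Mice were housed several to a cage with littermates as controls, but no source used here ties a library to a litter, cage or batch. The edgeR p-values set the group difference against the spread between mice of a group, moderated over genes. They treat the 8 mice as independent. No 2 libraries of a group agreed within sampling noise. Alternatives were DESeq2 1.42.0, RLE or no normalization factor, count filters (at least 10 counts over the libraries, filterByExpr), robust moderation, limma 3.58.1 on log2(FPKM + 1) and log2(FPKM + 0.1), removal of a GC trend (lowess, span 0.3), thinning, removal of 13 mitochondrial genes, leaving out each library, and the accession run of HipR9 and HipR11 as a term or left out. Leaving out HipR3 and HipR4 was chosen after seeing the data. GC content was taken per symbol from its longest transcript in GENCODE vM21 and was available for 38 members and 92.7% of the 16813 genes averaging 10 counts or more. Scripts were tested on simulated counts.

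The members and lists were chosen with earlier results of these data known. Values in every library are given for members with an unadjusted p under 0.05, members without overlap between groups, and Gfap, Aldh1l1, Aqp4, S100b, Sox9, Slc1a2, Slc1a3, Glul, Gja1 and Aldoc. From each other list, at most the 4 genes with the smallest p under 0.05 (mean count at least 10) and the gene with the most counts are named, and further ones where said. Some marker genes are not reported here by name. The authors' table of differential expression was not used for any value.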

Additional observations from a re-analysis of the deposited data

Results flagged for a closer look

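In 8 of 78 groups examined (38 members and their sum, in each treatment group), 1 library stood apart from the other 3, with a gap to the nearest that exceeded Dixon's 95% limit as a share of the group's range, where chance gives about 3.9. In the DHEA libraries, Sox9 was lowest in HipR11 with 35.5 CPM, beside 39.2 to 39.6 CPM in the other 3 (ratio 0.900). Mfge8 was also lowest in HipR11 with 111 CPM, beside 126 to 128 CPM in the other 3 (ratio 0.901). Slc7a10 was lowest in HipR4 with 26.5 CPM, beside 32.7 to 33.4 CPM in the other 3 (ratio 0.901). Ppp1r3c was highest in HipR4 with 65.2 CPM, beside 50.2 to 51.9 CPM in the other 3 (ratio 0.885). Hepacam was lowest in HipR3 with 89.8 CPM, beside 107 to 111 CPM in the other 3 (ratio 0.836). In the sesame oil libraries, Slc1a3 was highest in HipR9 with 698 CPM, beside 618 to 629.9 CPM in the other 3 (ratio 0.855). Phkg1 was lowest in HipR5 with 15.9 CPM, beside 21.8 to 22.3 CPM in the other 3 (ratio 0.919), and Clu was lowest in HipR10 with 726 CPM, beside 777 to 785 CPM in the other 3 (ratio 0.850). No explanation was tested for single libraries.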

How the results depend on the processing

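After adjustment, edgeR called 0 members (16 had an unadjusted p under 0.05), DESeq2 called 1 (Id4) and edgeR 1 without the later accession run (S100b, adjusted p = 0.0456 from edgeR), and 0 in the other settings run, including each library left out (0 to 0). The number higher with an unadjusted p under 0.05 was 16, and it was 8 with limma-trend on log2(FPKM + 1), 8 on log2(FPKM + 0.1), and ranged from 9 to 18 with each library left out, lowest without HipR5 (sesame oil). The share of all genes tested with an unadjusted p under 0.05, in either direction, moved between settings as well. Beside 9.31% in the main fit, it was 9.43% in both limma-trend fits. It ran from 6.53% (without HipR5) to 13.5% (without HipR7) with each library left out. The causes were not tested. The number of members higher was 12 to 20 in the other settings, and 0 members were lower in any of them. The share there ran from 7.89% (without both HipR3 and HipR4) to 12.5% (filterByExpr, 16861 genes tested). The median log2 fold change stayed between 0.10 (without HipR4) and 0.18 (without the later accession run). Of the 16 members, Id4, S100b, Pla2g7, Ndrg2, Glul and Htra1 kept an unadjusted p under 0.05 in every setting. Gfap and Sox9 lost it only without both HipR3 and HipR4, and Gja1 and Slc1a3 lost it in 13 settings each. Gjb6 lost it in 10 settings, Fgfr3 in 8, Slc1a2 in 6, Ppp1r3c in 5, and Mlc1 and Clu in 4 each. Over all members and alternatives, 745 values kept their side of this threshold, 65 lost and 26 gained it, and 0 turned their direction past it. No paired analysis was possible because the labels carry no numbers shared between the groups. The median standard error of the members' log2 fold changes was 0.077, which limits what 4 libraries a group can show.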
